A study of Mus musculus with 20 samples.

Results

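Tumours grown from U14, a mouse cervical cancer cell line, were compared between the Combination group, read from the series text as Plerixafor together with an antibody against PD-1, and the Plerixafor group, which received the antagonist alone, with 5 RNA sequencing libraries each. Both groups therefore received the antagonist, and the comparison asks what the antibody adds to it. The other groups of the series, 5 libraries of tumours given anti-PD-1 alone and 5 given the solution alone, enter only the interaction and 1 fit over all 20 libraries. The labels give the tissue as tumour and the cell type as cervical cancer, and no strain, age, dose, time or number of animals. Because they do not say that libraries of a group came from separate animals, the tests measure the spread between libraries, part of which may be technical. The genes described are the 11299 of 18722 in the deposited table that had an FPKM (fragments per gene, corrected for gene length and library depth) of 1 or more in at least 5 of the 10 libraries. Depth recovered from the FPKM steps was 17338691 to 19026511 reads per library in the Combination group and 17392027 to 18774688 in the Plerixafor group.

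CXCR4 is the receptor of the chemokine CXCL12 and guides lymphocytes, myeloid cells and tumour cells, and Plerixafor blocks it. PD-1, encoded by Pdcd1, restrains T cells that meet its ligands, and antibodies against it can release cytotoxic activity and interferon gamma. Interferon gamma induces chemokines, guanylate binding proteins and the antigen presentation machinery. A response of tumour-infiltrating T cells to the antibody is commonly read from such genes. The series concerns CXCR4, the exhaustion factor TOX, and JAK2 and STAT3.

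No gene passed the test between Combination and Plerixafor tumours, and for most genes the interval left room for only a small change. At an adjusted p under 0.05 (limma with Benjamini-Hochberg adjustment over all genes tested) 0 of 11299 genes passed (0%), and the smallest adjusted p was 0.999. The 95% interval of the log2 fold change of FPKM + 1 lay inside 2-fold in either direction for 10669 genes (94.4%) and inside 1.5-fold for 9592 genes (84.9%). A one-sided test against both 2-fold limits, adjusted over all genes, placed 10905 genes (96.5%) within them. The median interval reached 0.23 to each side of its estimate on the log2 scale, a factor of 1.17. The fit had 8 residual degrees of freedom, and for the half-widths limma drew each gene's variance towards a trend across genes. Since 1 FPKM was added to each value, these bounds understate what is possible for genes of low level: with 0.1 added instead, the interval lay inside 2-fold for 10176 genes. Of the 630 genes (5.58%) whose interval reached past 2-fold, 147 were members of the gene lists described here, which hold markers of immune, stromal and muscle cells.

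The point estimates were small. From the 5th to the 95th percentile of genes they ran from -0.18 to 0.16 on the log2 scale, around a median of 0.00. Only 7 genes had an estimate beyond 2-fold, 1 higher and 6 lower, and none of these had an unadjusted p under 0.05. The 6 lower ones were Myh1, Myh2, Acta1, Mb and Csrp3, all genes of skeletal muscle, and Chil3, a chitinase-like protein of macrophages. The single higher one was Ccn3, a matrix-associated signalling protein. At an unadjusted p under 0.05 there were 224 genes (1.98% of those tested), 88 higher (0.779%) and 136 lower (1.2%), and the largest estimate among the 224 was 0.43 in size. The groups did not overlap, every Combination library lying above or below every Plerixafor library, for 51 genes (0.451%), 20 higher (0.177%) and 31 lower (0.274%).

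**Figure D1:**
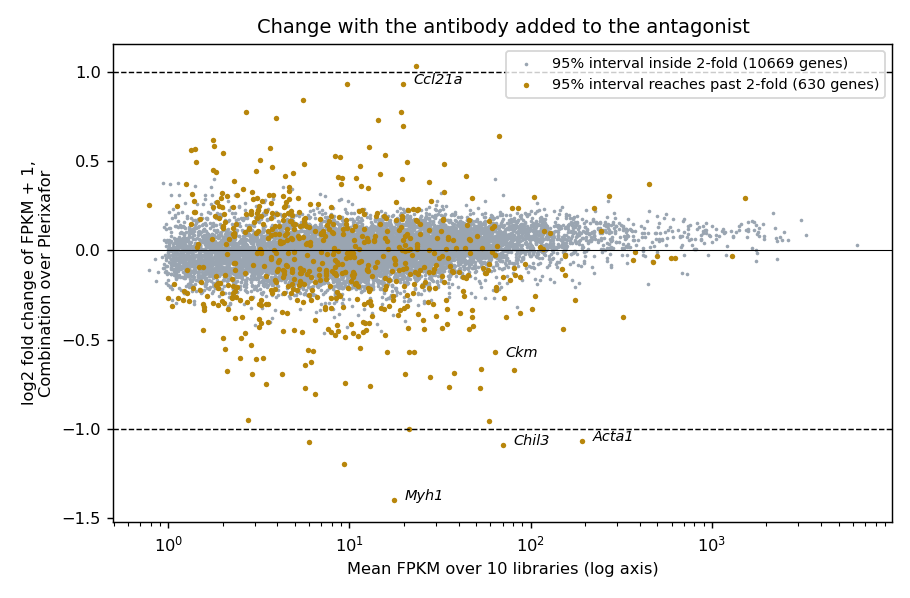
Each point is 1 of the 11299 genes, placed by its mean FPKM over the 10 libraries (log axis) and its log2 fold change of FPKM + 1, Combination over Plerixafor; dashed lines mark 2-fold. Grey points are the 10669 genes whose 95% interval stayed inside 2-fold and gold points the 630 whose interval reached past it, among them Acta1, Chil3, Ckm, Myh1 and Ccl21a.

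The genes with the smallest p in each direction, 8 higher and 8 lower, are given first. Zfp771, a zinc finger protein, had 8.06, 8.49, 7.67, 8.31 and 8.59 FPKM in Combination libraries 1 to 5, against 6.43, 7.59, 6.89, 6.43 and 5.23 FPKM in Plerixafor libraries 1 to 5 (log2 fold change 0.30, 95% interval 0.12 to 0.49). Every Combination library lay above every Plerixafor library. Aven, an inhibitor of caspase activation, had 7.46, 7.09, 6.78, 7.66 and 7.32 FPKM in Combination libraries 1 to 5, against 5.70, 6.38, 6.10, 6.60 and 5.32 FPKM in Plerixafor libraries 1 to 5 (log2 fold change 0.24, 95% interval 0.09 to 0.38), also without overlap. Lpcat1, an acyltransferase of lung surfactant and membrane phospholipids, had 19.5 to 22.0 FPKM in Combination libraries and 16.6 to 19.4 FPKM in Plerixafor libraries (log2 fold change 0.21, 95% interval 0.08 to 0.34). The other higher genes of this set were Fam32a, Mettl18, Chpf, Bcs1l and Fbxl15, with estimates of 0.16 to 0.28.

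Tet2, a dioxygenase that oxidises methylated cytosine in DNA, had 2.20, 1.99, 2.17, 2.50 and 1.92 FPKM in Combination libraries 1 to 5, against 3.08, 2.40, 2.70, 3.13 and 2.86 FPKM in Plerixafor libraries 1 to 5 (log2 fold change -0.28, 95% interval -0.46 to -0.10). The highest Combination library was just above the lowest Plerixafor library. Grhl1, a transcription factor of epithelia, had 1.67 to 2.17 FPKM in Combination libraries and 2.22 to 2.72 FPKM in Plerixafor libraries (log2 fold change -0.29, 95% interval -0.47 to -0.12), and Parp4, of the vault particle, had 4.59 to 6.38 FPKM in Combination libraries and 6.53 to 8.73 FPKM in Plerixafor libraries (log2 fold change -0.35, 95% interval -0.57 to -0.12). AW549877, an uncharacterised gene with the smallest p of all, averaged 14.9 ± 1.03 FPKM in Combination libraries and 18.1 ± 0.918 FPKM in Plerixafor libraries (SD, n = 5 each). The other lower genes were Vwa8, Als2cl, Vmn2r96 and Zfp292, with estimates of -0.38 to -0.22. The adjusted p of each of these 16 genes was 0.999 in limma, so none can be told from the spread among libraries once 11299 genes are tested.

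The drug targets and the pathway genes that the series names had overlapping groups throughout. Cxcr4 had 10.7, 10.5, 8.74, 5.002 and 3.97 FPKM in Combination libraries 1 to 5, against 4.92, 4.98, 8.13, 5.42 and 15.5 FPKM in Plerixafor libraries 1 to 5. Both groups held a library at 10 FPKM or more and a library under 5 FPKM, and the highest value was in Plerixafor 5. The estimate was close to 0 (log2 fold change 0.04, 95% interval -0.72 to 0.79), and the averages were 7.77 ± 3.11 FPKM in Combination libraries and 7.80 ± 4.52 FPKM in Plerixafor libraries (SD, n = 5 each). Cxcl12, the ligand, had 31.9, 29.3, 16.0, 11.8 and 4.24 FPKM in Combination libraries 1 to 5, against 10.8, 6.81, 11.9, 9.40 and 49.5 FPKM in Plerixafor libraries 1 to 5. Its values fell between 4.24 and 49.5 FPKM with both ends formed by libraries of replicate number 5, and its interval reached past 2-fold in both directions (log2 fold change 0.17, 95% interval -1.15 to 1.499). Ackr3, a scavenging receptor of the same ligand, was steadier, at 26.1 to 31.9 FPKM in Combination libraries and 25.1 to 32.8 FPKM in Plerixafor libraries (log2 fold change -0.06, 95% interval -0.25 to 0.13), and Mif, another ligand of CXCR4, had an estimate of 0.07 (95% interval -0.19 to 0.32). Cd74, a receptor of MIF and the invariant chain of MHC class II, ran from 260.3 to 1959 FPKM in Combination libraries and 623 to 3242 FPKM in Plerixafor libraries.

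Pdcd1 had 5.25, 5.52, 4.57, 1.73 and 0.608 FPKM in Combination libraries 1 to 5, against 2.09, 1.46, 3.47, 1.58 and 4.49 FPKM in Plerixafor libraries 1 to 5. Combination libraries 1 to 3 were above every Plerixafor library and Combination 5 was below all of them, so the groups overlapped and the interval reached just past 2-fold upward (log2 fold change 0.21, 95% interval -0.70 to 1.12). Tox was under the level required for testing, with 8 to 43 reads per library: it averaged 0.35 ± 0.177 FPKM in Combination libraries and 0.284 ± 0.127 FPKM in Plerixafor libraries (SD, n = 5 each), and no fold change is given for it. Jak2 averaged 8.50 ± 1.17 FPKM in Combination libraries and 9.31 ± 2.02 FPKM in Plerixafor libraries (SD, n = 5 each), with a narrow interval around a small estimate (log2 fold change -0.11, 95% interval -0.41 to 0.20). Stat3, the transcription factor downstream of JAK2 in interleukin-6 signalling, averaged 47.1 ± 5.61 FPKM in Combination libraries and 51.8 ± 9.80 FPKM in Plerixafor libraries (SD, n = 5 each) (log2 fold change -0.12, 95% interval -0.41 to 0.17). Jak2 and Stat3 are thus bounded to within 1.5-fold. Of the 24 tested genes of the JAK-STAT list, 0 passed, 21 had intervals inside 2-fold and 20 had an estimate below 0, with a median of -0.06 against 0.00 over all genes and 51.7% of all genes below 0. Without Combination 5 the number of JAK-STAT genes below 0 was 8 (median 0.04) and without Plerixafor 5 it was 7 (median 0.04), whereas it was 24 without Combination 1 (median -0.16) or Plerixafor 4 (median -0.12).

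**Figure D2:**
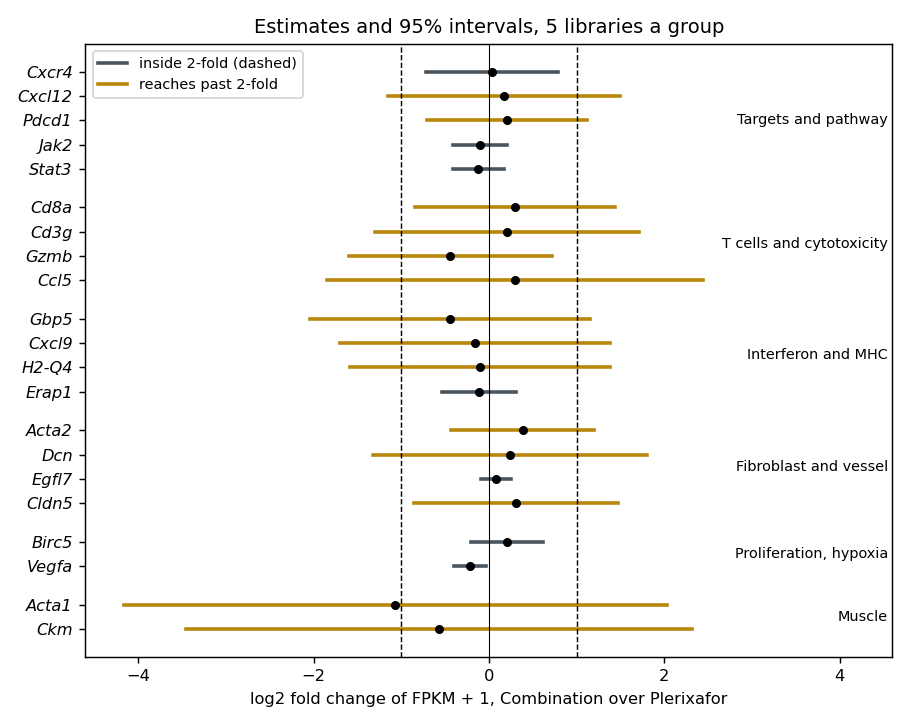
Log2 fold change of FPKM + 1, Combination over Plerixafor, for genes of each role (points) with 95% intervals from limma (bars); dashed lines mark 2-fold. Intervals of Jak2, Stat3, Vegfa, Egfl7 and Erap1 are short and inside 2-fold, those of Gbp5, Ccl5, Dcn, Acta1 and Ckm reach past it on both sides.

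T cell genes had wide intervals, and libraries of the same group differed several-fold. Of the 14 tested T cell genes 0 passed and 3 had an interval inside 2-fold, with a median estimate of 0.10. Cd8a, of the coreceptor of cytotoxic T cells, had 8.48, 7.79, 10.01, 3.51 and 0.734 FPKM in Combination libraries 1 to 5, against 3.30, 1.89, 4.15, 3.03 and 9.04 FPKM in Plerixafor libraries 1 to 5 (log2 fold change 0.29, 95% interval -0.85 to 1.43). Combination 1 to 3 lay with Plerixafor 5 at the top, and Combination 5 was the lowest of the 10. Cd3g, of the T cell receptor complex, was lowest in Combination 5 and highest in Plerixafor 5, with 1.36 to 23.1 FPKM in Combination libraries and 4.06 to 28.1 FPKM in Plerixafor libraries (log2 fold change 0.21, 95% interval -1.30 to 1.71), and Cd4 had 0.677 to 7.50 FPKM in Combination libraries and 1.44 to 10.7 FPKM in Plerixafor libraries (log2 fold change 0.17, 95% interval -0.98 to 1.32). The list's median estimate was -0.11 without Combination 1 and 0.47 without Combination 5. In bulk tumour RNA, fewer cells of a type and less RNA per cell cannot be told apart.

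The cytotoxic list of 14 tested genes had 0 past the threshold, 1 interval inside 2-fold and a median of 0.08. The median was -0.25 without Combination 1, where 10 genes were tested and 9 lay below 0, and 0.51 without Combination 5, where 13 of 14 lay above 0. Gzmb, a granzyme that starts death of the target cell, had 13.2, 7.23, 7.89, 4.24 and 0.918 FPKM in Combination libraries 1 to 5, against 10.1, 3.63, 11.8, 4.49 and 12.4 FPKM in Plerixafor libraries 1 to 5 (log2 fold change -0.44, 95% interval -1.60 to 0.72). Ccl5, a chemokine of activated T and NK cells, had the widest interval of the list: it had 217, 147, 146, 47.2 and 7.63 FPKM in Combination libraries 1 to 5, against 43.8, 20.1, 85.5, 27.8 and 298 FPKM in Plerixafor libraries 1 to 5 (log2 fold change 0.30, 95% interval -1.84 to 2.44). The exhaustion list had 13 tested genes, 0 passed, 9 had intervals inside 2-fold and the median was -0.02, with -0.14 without Combination 1 and 0.11 without Combination 5. Lag3, an inhibitory receptor, had 0.906 to 8.005 FPKM in Combination libraries and 1.36 to 10.5 FPKM in Plerixafor libraries (log2 fold change 0.27, 95% interval -0.87 to 1.41). Tigit, another inhibitory receptor, did not follow the T cell genes: its range was 14.1 to 20.7 FPKM in Combination libraries and 15.1 to 27.8 FPKM in Plerixafor libraries, including 18.5 FPKM in Combination 5, where Cd3g was at 1.36 FPKM. Klra4, an Ly49 receptor gene of NK cells, was likewise at 16.6 FPKM in that library and at 5.94 FPKM in Plerixafor 5. Regulatory T cell genes (6 tested, 4 inside 2-fold, median 0.01) and naive and memory T cell genes (7 tested, 5 inside 2-fold, median -0.07) also had 0 past the threshold, and both medians turned with single libraries: they were -0.15 and -0.16 without Combination 1 and 0.24 and 0.02 without Combination 5.

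Interferon genes had estimates below 0 in nearly every member, without any passing. Of 17 tested interferon gamma targets 0 passed, 16 had an estimate below 0 and none had an interval inside 2-fold, with a median of -0.28. Of 21 tested type I interferon genes 0 passed, all 21 had an estimate below 0 and 13 had an interval inside 2-fold, with a median of -0.21. No member of either list had an unadjusted p under 0.05. Gbp5, a guanylate binding protein of inflammasome assembly, had 41.9, 30.0, 25.9, 11.5 and 2.81 FPKM in Combination libraries 1 to 5, against 27.6, 9.61, 43.8, 9.31 and 55.4 FPKM in Plerixafor libraries 1 to 5 (log2 fold change -0.44, 95% interval -2.04 to 1.15). The groups overlapped over nearly their whole range, with the lowest value in Combination 5 and the highest in Plerixafor 5. Cd274, which encodes the PD-1 ligand PD-L1, had 17.7, 12.4, 12.4, 7.203 and 2.14 FPKM in Combination libraries 1 to 5, against 11.9, 5.57, 18.6, 4.82 and 35.7 FPKM in Plerixafor libraries 1 to 5 (log2 fold change -0.41, 95% interval -1.73 to 0.91). Rsad2, an antiviral enzyme and the type I gene with the smallest p, had 3.64, 2.68, 1.94, 1.72 and 2.06 FPKM in Combination libraries 1 to 5, against 3.78, 2.03, 4.63, 2.81 and 4.72 FPKM in Plerixafor libraries 1 to 5 (log2 fold change -0.42, 95% interval -0.87 to 0.04). Ifit1 had 3.32 to 10.1 FPKM in Combination libraries and 4.99 to 15.8 FPKM in Plerixafor libraries (log2 fold change -0.48, 95% interval -1.31 to 0.36).

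The counts of interferon genes below 0 were smallest without Combination 5 or Plerixafor 5, and the gamma targets turned without Combination 5. Without Combination 5, 2 of the 17 interferon gamma targets had an estimate below 0 (median 0.08), and without Plerixafor 5, 11 did (median -0.03). Among the 21 type I genes the number below 0 was 13 without Combination 5 and 15 without Plerixafor 5, with medians of -0.07 and -0.08. Leaving out any other single library gave 14 to 17 of 17 and 18 to 21 of 21, with medians down to -0.53 without Plerixafor 4 for the gamma targets and -0.41 without Combination 1 for the type I genes. MHC class I genes turned without either library: all 14 had an estimate below 0 with every library (median -0.11), 0 without Combination 5 (median 0.20) and 1 without Plerixafor 5 (median 0.16). Erap1, a peptide-trimming protease and the steadiest of them, had 22.8 to 41.2 FPKM in Combination libraries and 27.1 to 44.7 FPKM in Plerixafor libraries (log2 fold change -0.11, 95% interval -0.53 to 0.30), while H2-Q4, a class I chain, had 85.4, 70.8, 67.9, 36.6 and 7.65 FPKM in Combination libraries 1 to 5, against 36.0, 24.7, 52.1, 26.9 and 138 FPKM in Plerixafor libraries 1 to 5 (log2 fold change -0.10, 95% interval -1.58 to 1.38). Of 11 MHC class II genes 3 had an interval inside 2-fold and 10 an estimate below 0 (median -0.05), against 0 below 0 without Combination 5 or without Plerixafor 5, and H2-Ab1 had 115 to 952 FPKM in Combination libraries and 300.2 to 1581 FPKM in Plerixafor libraries.

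Promoters of some interferon gamma targets are shown here because the levels of these genes varied widely across libraries and interferons act through known promoter elements. The interferon-stimulated response element was searched as GAAA, any 2 bases and GAAA again on both strands, and the gamma-activated site as TTCNNNGAA, which reads the same on both strands, in the 250 bases before the start in the RefSeq promoter table (GRCm38.p6). Promoters of 1 chromosome were left out of the search. Of the 17 tested targets 13 had a promoter among those searched. The first motif was found in 8 of these 13 (61.5%), against 3.04% of all 27025 promoters searched. It was also found in 8 of 16 promoters of type I genes (50%), 2 of 12 of MHC class I genes (16.7%) and 1 of 20 of proliferation genes (5%). Cxcl9 and Cd274, also among the targets with the largest SD, had neither motif in this window. The second motif was found in 4 of the 13 (30.8%), against 7.18% of all promoters searched. The 5 targets with the first motif and the largest SD between libraries are printed as 60 bases each, 5′ to 3′ on the strand of the gene, with both motifs in capitals. In Gbp3 and Irgm1 a pair of matches to the first motif overlap, and in Igtp both motifs stand side by side. Gbp5 also had 2 matches to the second motif in the 250 bases, both outside the 60 printed.
Gbp5 (chr3:142496744-142496803, plus strand): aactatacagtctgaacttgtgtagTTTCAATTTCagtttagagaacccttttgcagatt
Gbp2 (chr3:142620579-142620638, plus strand): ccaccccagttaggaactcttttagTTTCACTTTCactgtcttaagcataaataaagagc
Igtp (chr11:58199496-58199555, plus strand): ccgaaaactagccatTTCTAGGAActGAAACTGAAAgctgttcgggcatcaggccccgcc
Gbp3 (chr3:142559980-142560039, plus strand): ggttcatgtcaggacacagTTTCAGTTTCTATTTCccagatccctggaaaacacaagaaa
Irgm1 (chr11:48871421-48871480, minus strand): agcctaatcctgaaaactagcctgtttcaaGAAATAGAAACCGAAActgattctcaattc
A match describes letters and not a bound site. The SDs within groups were 1.278 for Gbp5, 1.22 for Gbp2, 1.13 for Igtp, 1.07 for Gbp3 and 0.9977 for Irgm1 on the log2(FPKM + 1) scale, against a median of 0.16 over all genes.

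Myeloid genes were spread in the same way. Of 18 tested macrophage and monocyte genes 0 passed, 13 had intervals inside 2-fold, and 10 had an estimate below 0 (median -0.01). The number below 0 was 3 without Combination 5 (median 0.23), 2 without Plerixafor 5 (median 0.25) and 16 without Plerixafor 4 (median -0.14). Lyz2, lysozyme of macrophages, had 2407, 1831, 2538, 952 and 357 FPKM in Combination libraries 1 to 5, against 654, 638, 1194, 704 and 3876 FPKM in Plerixafor libraries 1 to 5 (log2 fold change 0.30, 95% interval -1.14 to 1.73), and Apoe, a lipid carrier, had 239.8 to 619 FPKM in Combination libraries and 173 to 1130.4 FPKM in Plerixafor libraries (log2 fold change 0.38, 95% interval -0.68 to 1.43). Cd163, a haemoglobin scavenger receptor, had the smallest p of the list (log2 fold change -0.32, 95% interval -0.92 to 0.29). Neutrophil genes, 10 tested with 3 intervals inside 2-fold, had 9 estimates below 0 and a median of -0.19, which was -0.41 without Combination 1 and -0.09 without Combination 5, where 6 of 10 lay below 0. S100a9, an alarmin of neutrophils, had 14.9, 12.3, 6.46, 6.38 and 3.67 FPKM in Combination libraries 1 to 5, against 27.1, 5.59, 26.4, 5.81 and 20.7 FPKM in Plerixafor libraries 1 to 5 (log2 fold change -0.76, 95% interval -1.89 to 0.38). Plerixafor libraries were high in 1, 3 and 5 and low in 2 and 4, and the Combination libraries lay between and below. Among 20 chemokines 0 passed and 9 had an interval inside 2-fold, and the median was -0.13, but 0.20 without Combination 5 and 0.16 without Plerixafor 5. Cx3cl1, a membrane-bound chemokine, had 74.3, 69.5, 67.5, 85.7 and 62.6 FPKM in Combination libraries 1 to 5, against 71.5, 56.6, 50.4, 66.2 and 33.9 FPKM in Plerixafor libraries 1 to 5 (log2 fold change 0.40, 95% interval 0.00 to 0.80), and Cxcl2, which attracts neutrophils, had 0.789 to 4.08 FPKM in Combination libraries and 0.584 to 5.50 FPKM in Plerixafor libraries (log2 fold change -0.49, 95% interval -1.41 to 0.44). No chemokine had an unadjusted p under 0.05, so the interval of Cx3cl1 included 0. All 7 mast cell genes and 6 of 7 dendritic cell genes had intervals inside 2-fold.

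Stroma and vessels gave no call either. Of 18 fibroblast and matrix genes 6 had intervals inside 2-fold, 13 had an estimate above 0 and the median was 0.07. That direction turned with single libraries: 3 of 18 were above 0 without Plerixafor 1 (median -0.13) and 4 without Combination 1 (median -0.09), but 17 without Combination 5 (median 0.34) and 18 without Plerixafor 5 (median 0.33). Dcn, the collagen-binding proteoglycan decorin, had 149, 105, 121, 43.6 and 16.7 FPKM in Combination libraries 1 to 5, against 29.7, 42.1, 40.9, 46.1 and 257 FPKM in Plerixafor libraries 1 to 5 (log2 fold change 0.24, 95% interval -1.32 to 1.80). Acta2, smooth muscle actin of activated fibroblasts and pericytes, had 37.5, 52.0, 37.1, 22.3 and 12.3 FPKM in Combination libraries 1 to 5, against 14.0, 18.5, 19.8, 32.5 and 30.3 FPKM in Plerixafor libraries 1 to 5 (log2 fold change 0.38, 95% interval -0.43 to 1.199). Endothelial genes were tighter: 11 of 13 intervals were inside 2-fold, and Egfl7, a secreted endothelial protein, had 35.5 to 39.7 FPKM in Combination libraries and 30.3 to 40.3 FPKM in Plerixafor libraries (log2 fold change 0.08, 95% interval -0.09 to 0.25). Cldn5, of endothelial tight junctions, was an exception, with 1.26 to 7.78 FPKM in Combination libraries and 1.18 to 11.0041 FPKM in Plerixafor libraries (log2 fold change 0.30, 95% interval -0.86 to 1.47).

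Lists of general cell state were bounded more closely. All 24 proliferation genes had intervals inside 2-fold and 23 inside 1.5-fold. Birc5, which encodes survivin, a regulator of chromosome segregation, had 85.1, 109.6, 88.9, 104 and 109 FPKM in Combination libraries 1 to 5, against 105, 98.9, 94.2, 91.0 and 50.6 FPKM in Plerixafor libraries 1 to 5 (log2 fold change 0.21, 95% interval -0.20 to 0.62). Plerixafor 5 was the lowest of the 10 libraries, and every other library was above 80 FPKM. Of the 24 estimates 22 were above 0 (median 0.07), but without Plerixafor 5 only 4 were (median -0.08). Krt18, a keratin that U14 tumours express, had 444 to 641 FPKM in Combination libraries and 410.5 to 588 FPKM in Plerixafor libraries (log2 fold change 0.10, 95% interval -0.20 to 0.39). Epcam, an epithelial adhesion molecule, ran from 0.0777 to 5.18 FPKM in Combination libraries and 0.103 to 3.37 FPKM in Plerixafor libraries. Of the 13 epithelial genes 9 were tested, and of 10 skin keratinocyte genes none reached the level for testing.

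Among 14 hypoxia and glycolysis genes 13 were bounded inside 2-fold. Vegfa, the vascular growth factor induced by hypoxia, had 68.6, 56.2, 58.8, 68.6 and 58.0 FPKM in Combination libraries 1 to 5, against 69.4, 64.4, 79.3, 73.3 and 74.8 FPKM in Plerixafor libraries 1 to 5 (log2 fold change -0.22, 95% interval -0.40 to -0.04), which gave an unadjusted p under 0.05 and an adjusted p of 0.999 in limma. All 15 immediate early and heat shock genes and all 13 p53 target and cell death genes had intervals inside 2-fold. Fos, an immediate early transcription factor, had 14.7, 18.1, 18.8, 17.1 and 17.2 FPKM in Combination libraries 1 to 5, against 19.96, 31.9, 21.1, 20.4 and 22.6 FPKM in Plerixafor libraries 1 to 5 (log2 fold change -0.40, 95% interval -0.67 to -0.12), without overlap between the groups. Atf3, a stress-induced transcription factor, had 11.9, 12.1, 9.66, 10.6 and 16.1 FPKM in Combination libraries 1 to 5, against 13.9, 17.8, 16.0, 12.4 and 22.5 FPKM in Plerixafor libraries 1 to 5 (log2 fold change -0.41, 95% interval -0.78 to -0.05), with overlap. Fos and Atf3 were the 2 of 15 with an unadjusted p under 0.05, both lower, where 1.2% of all genes were lower at that level. Bax, a pore-forming protein of apoptosis, had 83.5 to 95.9 FPKM in Combination libraries and 75.4 to 83.2 FPKM in Plerixafor libraries (log2 fold change 0.13, 95% interval 0.00 to 0.27), a narrow gap without overlap. No gene of the p53 target list had an unadjusted p under 0.05, so the interval of Bax included 0. A list of 9 tumour-cell genes that earlier results of these data had found high under the antagonist, and so no independent evidence, had all 9 intervals inside 2-fold and a median of 0.10.

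What differed between libraries was far larger than what differed between groups. The SD within groups of log2(FPKM + 1) had a median of 0.16, with the 10th percentile of genes at 0.09, the 90th at 0.52 and the 99th at 1.14. Counting error alone, from the recovered reads, accounted for a median SD of 0.05, and the measured SD was 3.56 times the counting SD for the median gene. The group difference made up 3.90% of a gene's variance at the median. The spread was not equal in both groups: the median SD was 0.13 in Combination libraries and 0.18 in Plerixafor libraries, and it was larger in the Combination group for 30.5% of genes. Without Plerixafor 5 the median pooled SD was 0.13.

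Skeletal muscle genes led the list of variable genes, and all 14 tested muscle genes were among the 200 genes with the largest SD. Acta1, skeletal actin, had 146, 10.04, 381, 3.60 and 290.2 FPKM in Combination libraries 1 to 5, against 16.2, 470.0, 278, 54.6 and 267 FPKM in Plerixafor libraries 1 to 5. Both groups held libraries above 200 FPKM and libraries under 20 FPKM, and the SD was 2.49, the largest of all 11299 genes. The interval of Acta1 was correspondingly wide (log2 fold change -1.07, 95% interval -4.17 to 2.03). Ckm, muscle creatine kinase, had 1.07 to 119.9 FPKM in Combination libraries and 4.06 to 112 FPKM in Plerixafor libraries (log2 fold change -0.57, 95% interval -3.45 to 2.32), and Myh1, a fast myosin heavy chain, had 12.7, 0.313, 32.1, 0.268 and 5.70 FPKM in Combination libraries 1 to 5, against 0.996, 52.6, 29.1, 4.30 and 37.2 FPKM in Plerixafor libraries 1 to 5 (log2 fold change -1.40, 95% interval -3.98 to 1.17). The list's share of all FPKM was 0.137%, 0.0118%, 0.291%, 0.00339% and 0.208% in Combination 1 to 5, against 0.0123%, 0.308%, 0.195%, 0.0555% and 0.248% in Plerixafor 1 to 5. All 14 estimates were below 0 with a median of -0.70, but the median was 0.09 without Combination 4 and -1.38 without Plerixafor 1. Muscle RNA was uneven in both groups, and its part in the other results was not tested.

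The non-muscle genes among the 15 of largest spread belonged to immune and stromal cells. Chil3 had 10.4, 6.83, 14.3, 1.19 and 1.18 FPKM in Combination libraries 1 to 5, against 5.12, 1.52, 4.57, 4.15 and 651 FPKM in Plerixafor libraries 1 to 5. Plerixafor 5 stood far above every other library, and without it the SD was 1.07 in place of 2.47. Ccl21a, a chemokine that guides cells to lymphatics and lymphoid tissue, had 40.7, 29.8, 63.3, 0.745 and 0.308 FPKM in Combination libraries 1 to 5, against 0.441, 12.6, 2.18, 1.52 and 45.7 FPKM in Plerixafor libraries 1 to 5. Combination 1 to 3 and Plerixafor 2 and 5 were above 10 FPKM, and the other 5 libraries were near or below 2 FPKM. Retnla, a product of alternatively activated macrophages, had 88.9, 73.4, 46.9, 26.1 and 1.283 FPKM in Combination libraries 1 to 5, against 12.8, 13.9, 9.61, 29.1 and 307 FPKM in Plerixafor libraries 1 to 5. Jchain, the joining chain of antibodies made by plasma cells, had 39.9, 39.8, 28.5, 7.72 and 0.559 FPKM in Combination libraries 1 to 5, against 1.82, 4.51, 20.3, 9.57 and 85.3 FPKM in Plerixafor libraries 1 to 5, again with Combination 5 lowest and Plerixafor 5 highest. The intervals of Ccl21a (-2.04 to 3.91), Retnla (-2.59 to 2.57) and Jchain (-2.22 to 2.68) reached past 4-fold in both directions. At the other end, among genes with a mean of at least 50 FPKM, Rab14, Snx6, Rab7, Tmed2 and Becn1, all of vesicle traffic or autophagy, had the smallest SDs, 0.03 to 0.04. Rab14 had 53.1, 52.8, 53.8, 53.2 and 51.9 FPKM in Combination libraries 1 to 5, against 53.1, 53.2, 54.2, 56.1 and 55.8 FPKM in Plerixafor libraries 1 to 5 (log2 fold change -0.04, 95% interval -0.14 to 0.06).

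**Figure D3:**
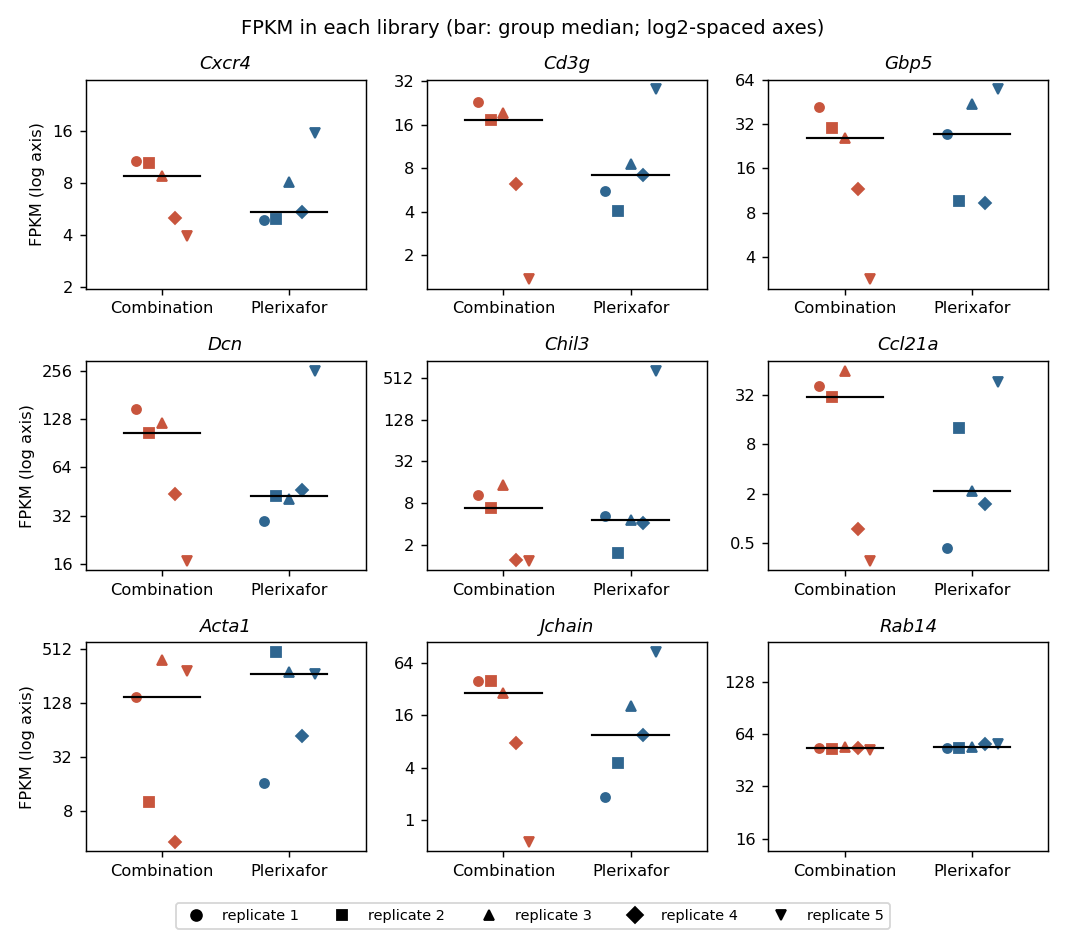
FPKM of 9 genes in each library (log axes, scaled per gene), Combination left and Plerixafor right; symbols mark the replicate number and bars the group median. Combination 5 is at or near the bottom and Plerixafor 5 at the top for Cxcr4, Cd3g, Gbp5, Dcn and Jchain, whereas Acta1 follows another order and Rab14 is level.

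Principal components put these patterns in order. Component 1 held 62.9% of the variance and component 2 held 16.0%. On component 1 the Combination libraries scored 25.3, 12.1, 15.7, -16.9 and -40.9 and the Plerixafor libraries -15.5, -18.4, 4.81, -17.0 and 50.7, so that both ends were formed by libraries numbered 5 and neither group had a side of its own. Genes with the highest weights on it were Chil3, Ccl21a, Retnla, Jchain, Clec3b and Ccl5. Component 2 had Acta1, Ckm and Tnnt3 at its high end and Cfd, Krt19, Ltf and Krt7, genes of fat and glandular or simple epithelium, at its low end, where Combination 4 (-18.1), Combination 2 (-16.8) and Plerixafor 1 (-17.6) lay. Krt19 accordingly had 20.3, 15.7, 2.23, 31.1 and 1.47 FPKM in Combination libraries 1 to 5, against 22.3, 1.99, 2.22, 5.32 and 11.6 FPKM in Plerixafor libraries 1 to 5, and Adipoq, an adipocyte hormone, had 0.347 to 8.24 FPKM in Combination libraries and 0.865 to 9.54 FPKM in Plerixafor libraries. The library closest to Combination 4 was Plerixafor 1 (Pearson r 0.993 across genes, which are not independent), and for 4 of the 10 libraries the closest one was of the same group.

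**Figure D4:**
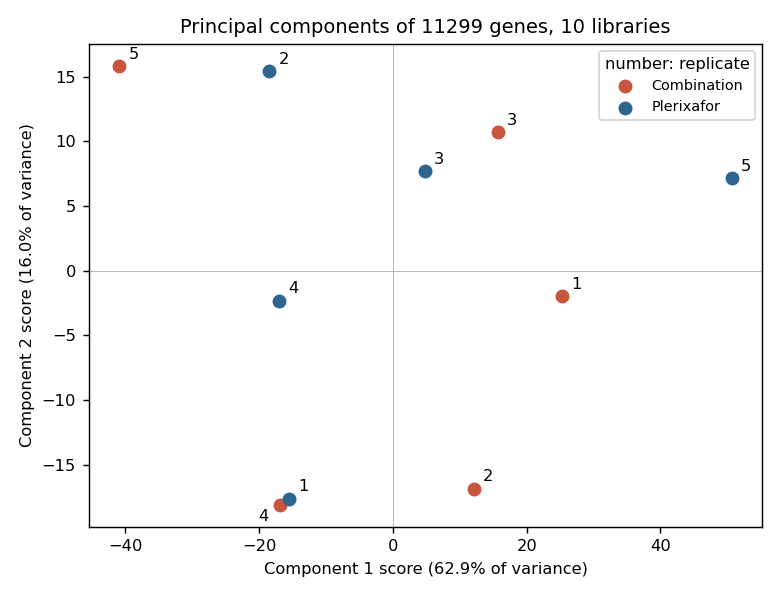
Scores of the 10 libraries on the first 2 principal components of log2(FPKM + 1) over 11299 genes, with the share of variance on each axis; the number is the replicate. Combination 5 and Plerixafor 5 form the ends of component 1, and Combination 4 lies beside Plerixafor 1.

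Across the 32 gene lists with tested members, Plerixafor 5 was the highest of the 10 libraries in 24 and Combination 5 the lowest in 24. The T cell list averaged 3.0003, 2.77, 2.85, 1.87 and 0.64 in Combination 1 to 5, against 1.82, 1.38, 2.22, 1.81 and 3.36 in Plerixafor 1 to 5, on the log2(FPKM + 1) scale. The fibroblast and matrix list ran from 4.29 to 6.04 in Combination libraries and from 4.502 to 6.54 in Plerixafor libraries with the same 2 libraries at its ends. Proliferation ran the other way, at 5.75 to 6.04 in Combination libraries and at 5.24 to 6.09 in Plerixafor libraries, with its lowest value in Plerixafor 5.

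**Figure D5:**
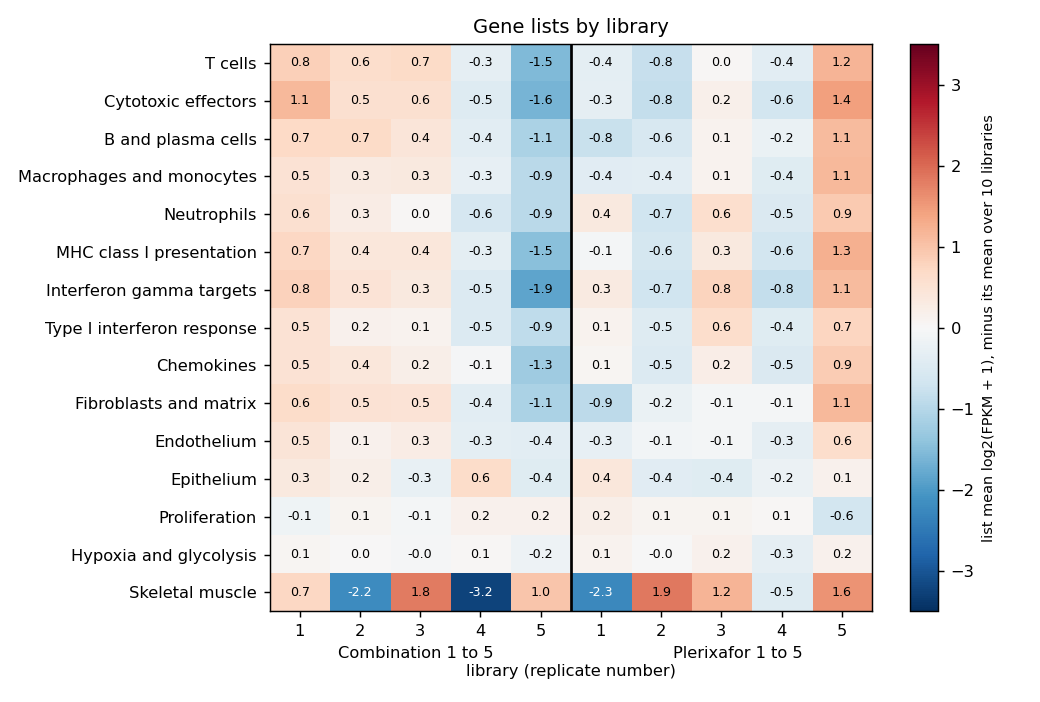
Mean log2(FPKM + 1) of 15 gene lists in each library, minus the list's mean over the 10 libraries, with Combination 1 to 5 left of the line and Plerixafor 1 to 5 right of it. Immune, interferon, MHC and fibroblast lists are lowest in Combination 5 and highest in Plerixafor 5, proliferation is lowest in Plerixafor 5, and skeletal muscle follows neither.

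With the mean level of the T cell list as a covariate, the intervals narrowed and still 0 of 11299 genes passed (0%). The interval lay inside 2-fold for 98.5% of genes and the median width was 0.36, against 0.45 without it. At an unadjusted p under 0.05 there were 272 higher genes (2.41%) and 388 lower ones (3.43%). Among interferon gamma targets 5 of 17 were lower at that level and none higher, and all 17 estimates were below 0 (median -0.37). Among type I interferon genes 6 of 21 were lower (median -0.28), among MHC class I genes 4 of 14 (median -0.21) and among checkpoint ligands 3 of 10. Other lists held lower genes too: 4 of 20 chemokines, with 1 higher, and 3 of 18 macrophage and monocyte genes. All 24 JAK-STAT genes had an estimate below 0 (median -0.10), and 2 of them were lower at that level. These lists share genes, so the counts are not separate. Tap1 and Psmb9 were counted among both the interferon gamma targets and the MHC class I genes. Cd274 was counted among both the interferon gamma targets and the checkpoint ligands. The covariate is measured in the same libraries and after treatment, so these are values at equal T cell RNA. With the fibroblast and matrix list as the covariate, 255 genes (2.26%) were higher and 227 (2.01%) lower at an unadjusted p under 0.05, and of the interferon gamma targets 0 of 17 and of the type I genes 1 of 21 were among the lower ones, as were 0 of 14 MHC class I genes and 0 of 10 checkpoint ligands. The gene with the smallest p under both covariates was Tnfaip6, an inflammation-induced hyaluronan-binding protein (log2 fold change -0.66, 95% interval -0.93 to -0.39, adjusted p 0.751 with the T cell level in limma).

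The comparison was also run without Combination 5 and Plerixafor 5, a choice made after their values were seen. It takes the lowest library on component 1 from the Combination group and the highest from the Plerixafor group. Combination 4 still lay among the Plerixafor libraries there. The same 2 libraries were the lowest and the highest of the 10 on the T cell list (0.64 and 3.36). They were also the ends of the MHC class II, fibroblast, macrophage and B and plasma cell lists. Leaving them out raises the estimates of these lists by the choice itself, so the counts and estimates below are no evidence of a rise. Again 0 of 11108 genes passed (0%), and the smallest adjusted p was 0.375 in limma. At an unadjusted p under 0.05 there were 1403 genes, 880 higher (7.92%) and 523 lower (4.71%). All 13 tested T cell genes were among the higher ones, as were 9 of 11 MHC class II genes, 9 of 18 fibroblast genes, 8 of 18 macrophage genes and 4 of 7 B and plasma cell genes. Cd8a then had a log2 fold change of 1.001 (95% interval 0.37 to 1.63), Apoe 1.03 (0.50 to 1.55) and Dcn 1.26 (0.50 to 2.03). Cxcl12 had 1.03 (0.35 to 1.72), Pdcd1 0.71 (0.04 to 1.37) and Cxcr4 0.48 (-0.03 to 0.99), against 0.17, 0.21 and 0.04 with all 10 libraries. With all 10 libraries the estimates were 0.29 for Cd8a, 0.38 for Apoe and 0.24 for Dcn. Type I interferon genes had 0 of 21 at an unadjusted p under 0.05, but their estimates rose as well. Below 0 were 5 of 21 (median 0.10), against all 21 with all 10 libraries (median -0.21). Of the 17 interferon gamma targets 1 was higher at that level and 0 had an estimate below 0.

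The interaction asked whether the change with the antibody differed with and without the antagonist: Combination minus Plerixafor, minus the difference of anti-PD-1 and solution libraries. Of 11299 genes 0 passed (0%), the smallest adjusted p was 0.240 in limma, and 1659 genes (14.7%) had an unadjusted p under 0.05. Its median interval was 0.88 wide. Cxcr4 (interaction 0.63, SE 0.64, adjusted p 0.584), Pdcd1 (interaction 1.27, SE 0.61, adjusted p 0.344), Jak2 (interaction 0.47, SE 0.25, adjusted p 0.37) and Stat3 (interaction 0.32, SE 0.27, adjusted p 0.518) did not pass on the log2 scale. Acta1 of skeletal muscle had a large value without passing: it averaged 166 ± 168 FPKM in Combination libraries and 217 ± 185 FPKM in Plerixafor libraries, and 7317 ± 7941 FPKM in anti-PD-1 libraries and 96.4 ± 136 FPKM in solution libraries (SD, n = 5 each), an interaction of -7.65 (SE 2.39, adjusted p 0.240). With weights estimated per library, which ran from 0.0530 to 3.41, 3579 genes passed, 1875 higher and 1704 lower, so the count of this contrast depends on that setting. With limma-voom on recovered reads 1 gene passed, Myh7b, a slow-type myosin heavy chain (log2 -5.30, adjusted p 0.00263).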

How the data were processed

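The labels give 5 libraries per group, made from total RNA of tumours with a strand-specific mRNA protocol for Illumina sequencing. The deposited table gives FPKM per gene and library; the submitters' processing notes name HISAT2 2.1.0, HTSeq 0.11.2, StringTie 2.1.4, DESeq2 1.28.1 and the build GRCm39, with no role or order. Promoters came from RefSeq on GRCm38.p6, and no coordinates were taken from one build to the other. The FPKM values were whole multiples of 1 read for all 18722 genes, within 0.02 reads, which gave the depth of each library. No 2 libraries agreed within sampling noise.

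Genes with FPKM of 1 or more in 5 of the 10 libraries were tested with limma 3.58.1 (R 4.3.3) on log2(FPKM + 1), with a trended variance, no covariate and Benjamini-Hochberg adjustment over all 11299 genes. The procedure was tested on simulated data. Intervals are 95% and pointwise. The interaction used all 20 libraries. Alternatives changed the pseudocount, filter, scaling, weights, tool, covariates, block or libraries.

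The members, gene lists and tests were chosen with earlier results of these data known. Genes named are the 6 of the axis, the 8 with the smallest p in each direction, the 15 with the largest and 5 with the smallest SD, and up to 4 by p and 2 by SD of each list. The genes beyond 2-fold, those with high weights on components, Gbp2, Igtp, Tnfaip6 and Myh7b fall outside that rule and were chosen after their values were seen.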

Additional observations from a re-analysis of the deposited data

Results flagged for a closer look

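Within each group of 5, the highest or lowest library was compared with the others for 77 list levels and gene levels, 154 group values in all. Of these, 7 stood apart from the other 4 libraries by Dixon's criterion. For levels not chosen by their values, chance marks about 1 in 20. Als2cl, Chil3 and Rab7 were chosen by their p or SD in these libraries, so that rate does not hold for them. All levels are on the log2(FPKM + 1) scale. Combination 5 had an eosinophil level of 0.457, from a single tested gene, where the other Combination libraries had 2.81 to 3.69. Combination 2 had Als2cl at 4.546, where the other Combination libraries had 4.73 to 4.80. Plerixafor 5 had an endothelium level of 3.96, where the other Plerixafor libraries had 3.02 to 3.28. It had a proliferation level of 5.24, where the others had 5.94 to 6.09. It had Cxcl12 at 5.66, where the others had 2.97 to 3.69, and Chil3 at 9.35, where the others had 1.34 to 2.61. Plerixafor 4 had Rab7 at 7.19, where the others had 7.29 to 7.32.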

How the results depend on the processing

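No gene passed in the comparison of Combination with Plerixafor under any of the 24 alternatives (limma, adjusted p under 0.05). The count at an unadjusted p under 0.05 ran from 72 with all 20 libraries in 1 fit to 1768 with weights per library, where the smallest adjusted p was 0.310, and leaving out 1 library gave 108 (without Combination 3) to 423 (without Plerixafor 2). The genes with an interval inside 2-fold numbered 17051 of 17786 with no filter, 10110 with limma-voom on recovered reads and 10360 to 10537 when 1 library was left out. In the interaction, 3579 genes passed with weights per library and 1 with limma-voom, against 0 otherwise; the cause was not tested.

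The log2 fold change of Cxcr4 turned to -0.0049 with the fibroblast level and to -0.0335 with the T cell level as covariate, and ran from -0.0877 to 0.29 when 1 library was left out. The log2 fold change of Cxcl12 ran from -0.0811 to 0.63 when 1 library was left out. With weights per library the log2 fold change of Jak2 turned to 0.0653 and the log2 fold change of Stat3 to 0.0210. Without Combination 5 and Plerixafor 5, a choice made after seeing the data, Jak2 turned to 0.0537 and Stat3 to 0.0193; the cause was not tested.

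Libraries with the same replicate number did not consistently deviate together. The correlations of their deviations across genes, which are not independent, were -0.49, -0.59, 0.25, 0.52 and -0.76 for numbers 1 to 5. With the replicate number as a block, 0 genes passed, 132 had an unadjusted p under 0.05 and 10277 had an interval inside 2-fold.

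At this depth, counting error was a small part of the spread for most tested genes. Tox, at 8 to 43 reads, was not tested, and its counting error was not computed.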
